A study of Caenorhabditis elegans with 8 samples.

Results

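The large piRNA cluster on the right arm of chromosome IV of Caenorhabditis elegans was examined between 14 and 15 Mb. Its members were all listed piRNAs that start at or after 14 Mb and before 15 Mb, which gave 2494 of the 9742 piRNAs in the deposited table (25.6%). The window was set by position alone and no measured value entered the choice. All 2494 members were listed as 21 nt long, and none was listed at several places. An exact match of position and strand was found for 2457 members in the Ensembl annotation of WBcel235, and 37 had no match there. That annotation holds 3476 piRNA genes in the window, of which 1019 were not analysed here.

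Small RNA of whole worms was sequenced in 8 libraries, 2 from each of 4 genotypes. The kin-3 libraries came from worms of genotype kin-3 kept on 500 µM IAA, an auxin. The prde-1, prg-1 and WT libraries came from untreated worms. No genotype other than kin-3 received IAA, so genotype and IAA cannot be told apart in that group. The labels give no allele, strain, age or stage, and nothing says whether the pair of libraries of each genotype are separate cultures; the p-values reflect the spread of these libraries alone. A table of piRNAs holds neither the mRNA of the mutated genes nor a marker of the germ line, and the genotypes could not be checked against it beyond the piRNA levels themselves. In whole worms, fewer germ cells and less piRNA per cell cannot be told apart.

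The piRNAs of C. elegans, called 21U-RNAs because they begin with uridine, are made in the germ line and are bound by the Piwi Argonaute PRG-1. Most come from very many small, separately transcribed genes on chromosome IV, crowded into clusters and preceded by a conserved upstream motif. PRDE-1 is a nuclear protein that is needed for transcription of these motif-dependent genes and that acts there with SNPC-4. KIN-3 carries the catalytic activity of casein kinase II, a serine/threonine kinase with a large number of substrates. Loaded PRG-1 scans germline transcripts and starts silencing of those it recognises, so the loss of PRG-1 leaves 21U-RNAs without their protein partner, while the loss of PRDE-1 acts on their precursors.

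The deposited values are reads per 1000000 reads (RPM), and each was a whole multiple of what 1 read was worth in its library. 1 read was worth 2.93 and 1.78 RPM in the kin-3 libraries, 0.187 and 0.178 RPM in the prde-1 libraries, 1.03 and 1.43 RPM in the prg-1 libraries, and 0.745 and 1.09 RPM in the WT libraries. The library totals behind these values ranged from 341001 reads in kin-3 replicate 1 to 5608712 in prde-1 replicate 2, so the smallest level that could be seen differed by library. With 3 reads of a genotype's pooled total taken as the limit that a count of 0 allows, a member with no read could have a level of up to 3.32 RPM in kin-3, 0.274 RPM in prde-1, 1.80 RPM in prg-1 and 1.33 RPM in WT. These limits and all intervals given here cover counting error only.

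The piRNAs of the cluster were nearly absent from the small RNA of all 3 mutants. Summed over the 2494 members, the level was 20.5 and 3.56 RPM in the 2 kin-3 libraries (7 and 2 reads), 6.74 and 6.60 RPM in the prde-1 libraries (36 and 37 reads), and 21.7 and 14.3 RPM in the prg-1 libraries (21 and 10 reads), against 4348 and 4346 RPM in the WT libraries (5839 and 3969 reads). Every mutant library lay far below both WT libraries. The means were 12 ± 12 RPM in kin-3, 6.67 ± 0.104 RPM in prde-1, 18 ± 5.2 RPM in prg-1 and 4347 ± 1.99 RPM in WT (SD, n = 2 each). The kin-3 mean was thus 0.277% of the WT mean, the prde-1 mean 0.153% and the prg-1 mean 0.413%. With reads pooled by genotype, the kin-3 sum was 436-fold below WT (exact conditional binomial 95% interval 230 to 954), the prde-1 sum 652-fold below it (518 to 832) and the prg-1 sum 234-fold below it (165 to 345). The kin-3 value rests on 9 reads and on which library is used: it was 0.0819% of WT without kin-3 replicate 1 and 0.472% without kin-3 replicate 2. With TMM factors computed on the listed piRNAs in place of the deposited scale, the sum was 0.283% of WT in kin-3 worms, 2.15% in prde-1 worms and 0.809% in prg-1 worms. TMM takes most of the piRNAs as unchanged, which did not hold for those tested below, so these shares only show how far the scale matters.

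**Figure D1:**
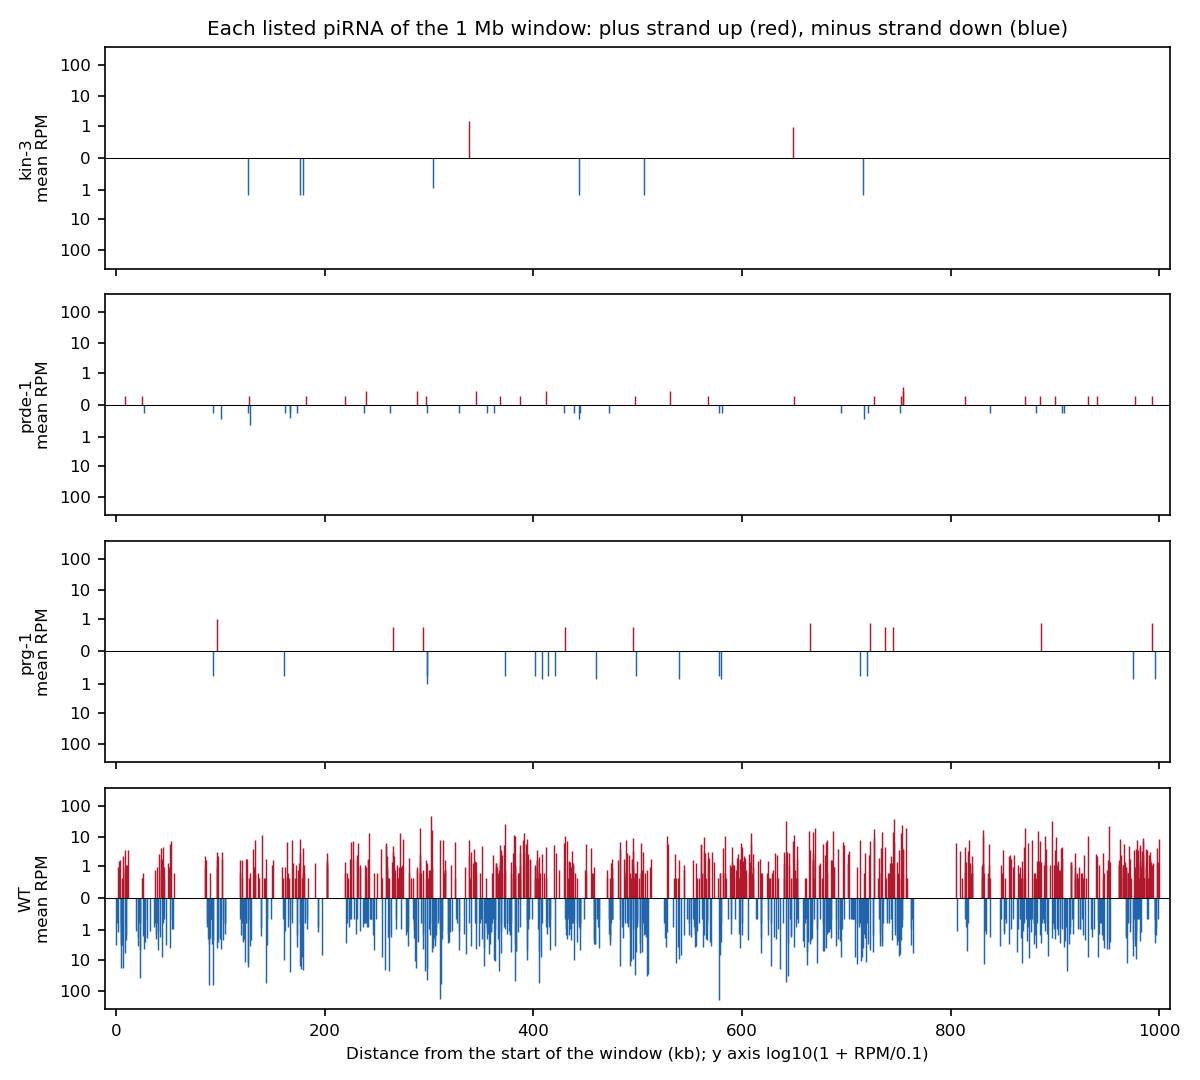
Mean RPM of each listed piRNA (y axis, log10 of 1 plus RPM over 0.1, plus strand upward in red and minus strand downward in blue) against its distance from the start of the window in kb, for kin-3, prde-1, prg-1 and WT from top to bottom. The 3 mutants show 9, 58 and 29 members with a read, scattered along the window, and WT shows 1319 on both strands.

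The members with any read show the same contrast. A read was present for 7 and 2 members in the kin-3 libraries, 29 and 32 in the prde-1 libraries and 19 and 10 in the prg-1 libraries, against 1068 and 917 in the WT libraries. Because a deeper library shows more members, each library was also thinned by calculation to 341001 reads. That gave 4.11 ± 4.09 members in kin-3 worms, 2.25 ± 0.0205 in prde-1 worms, 6.00 ± 1.60 in prg-1 worms and 560.2 ± 9.71 in WT (SD, n = 2 each). The larger number of members seen in prde-1 before thinning thus goes with its deeper libraries. Over the 2 libraries of a genotype, no member was read in both kin-3 libraries or in both prg-1 libraries, 3 were read in both prde-1 libraries, and 666 were read in both WT libraries. In WT a read was present for 1319 members (52.9%), and 1157 members had no read in any of the 8 libraries.

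Single members were tested with limma on log2(RPM + 1) over all 695 listed piRNAs whose mean over the 8 libraries reached 1 RPM, of which 233 were members. These passed almost wholly through their WT level, so they had to differ from the mutants, and the share of all tested piRNAs called is the background against which the counts are read. In kin-3, 232 of the 233 fell (99.6%), against 97.8% of all tested piRNAs, at an adjusted p under 0.05. In prde-1, 233 of 233 fell, against 98.3% of all tested. In prg-1, 232 of 233 fell, against 98% of all tested. No member was higher in a mutant than in WT by limma, also at an unadjusted p under 0.05, and edgeR's quasi-likelihood test on the recovered reads gave 0 as well; of all tested piRNAs, 0.288% were called higher in kin-3 worms, 0.863% in prde-1 worms, and 0.432% in the prg-1 fit. The shares of members that fell lie near the background.

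The median log2 fold change of the tested members was -3.10 in kin-3 worms, -3.10 in prde-1 worms and -3.04 in prg-1 against WT, beside -3.06, -3.06 and -3.04 over all tested piRNAs. Each is on the log2(RPM + 1) scale, which understates the change of piRNAs at a few RPM. Of the tested members, 227 had no read in kin-3, 209 had none in prde-1 and 222 had none in prg-1. In all, 196 of the 233 had no read in any mutant library, so for most of them only the WT level and the pseudocount enter the fitted fold change.

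Between mutants, no member was called by limma in kin-3 against prde-1, kin-3 against prg-1 or prde-1 against prg-1, and of all tested piRNAs 0% were called in each. The 196 of 233 tested members with no mutant read had a fold change of 0 between mutants and could not be called. The lack of calls therefore does not show that the mutants were alike. At an unadjusted p under 0.05 limma again gave 0 in each comparison, while edgeR gave 5 members higher in kin-3 than in prde-1 and 1 lower in prde-1 than in prg-1, none after adjustment. The summed level in kin-3 was 1.49 times that in prde-1 (95% interval 0.657 to 2.99) and 0.537 times that in prg-1 (0.225 to 1.16), and both intervals include 1. The libraries of kin-3 lay on either side of those of prde-1, at 20.5 and 3.56 RPM in kin-3 against 6.74 and 6.60 RPM in prde-1. In prde-1 the summed level was 0.359 times that in prg-1 (0.233 to 0.566), an interval that lies below 1. The 4 libraries did not overlap: 6.74 and 6.60 RPM in prde-1 stand against 21.7 and 14.3 RPM in prg-1. These orders depend on the scale: with TMM factors the share of WT left was lower in kin-3 (0.283%) than in prde-1 (2.15%), and higher in prde-1 than in prg-1 (0.809%). With 2 libraries a genotype, an exact permutation test could not pass 0.05, and none was run on sums over members.

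**Figure D2:**
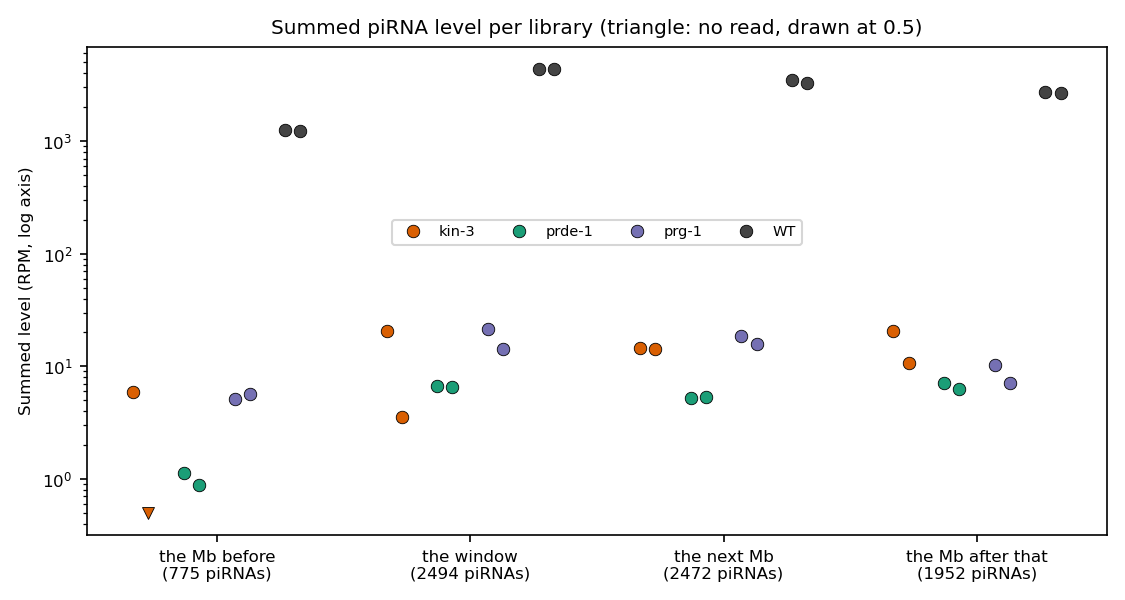
Summed level per library (RPM, log axis) of the listed piRNAs in the window and in the Mb before it, the next Mb and the Mb after that, with kin-3, prde-1, prg-1 and WT from left to right in each and 1 point per library. In the window the kin-3 libraries are at 20.5 and 3.56, the prde-1 libraries at 6.74 and 6.60, the prg-1 libraries at 21.7 and 14.3, and the WT libraries at 4348 and 4346 RPM.

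The most abundant members of the window in WT were lost with the rest. The highest of all was 21ur-6307 (WBGene00171658), at IV:14577635-14577655 on the minus strand, outside coding genes. It had 0 and 0 RPM in kin-3, 0.187 and 0 RPM in prde-1 and 1.03 and 0 RPM in prg-1, against 210.8 and 192.7 RPM in WT. A lone read in 1 prde-1 library and a lone read in 1 prg-1 library were thus all that remained, and no mutant library came near either WT library. Its level was at least 60.7-fold lower in kin-3 than in WT, by the limit of 3 reads over the group. In prde-1 it was lower by a ratio of 2227 (95% counting interval 398 to 88152) and in prg-1 by a ratio of 340 (60.7 to 13446). The limma log2 fold change was -7.66 in kin-3 worms (adjusted p = 5.5e-06), -7.54 in prde-1 worms (6.0e-06) and -7.15 in prg-1 worms (7.6e-06), with an SE of 0.34 each. This member was picked for its high WT level in the same libraries, so these p-values are not independent support for its loss.

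The second was 21ur-5695 (WBGene00170359), at IV:14310785-14310805 on the minus strand, antisense within an intron of the coding gene Y64G10A.7. It had no read in the 6 mutant libraries, against 181 and 191.6 RPM in the WT libraries. That makes it at least 56.1-fold lower in kin-3, 680-fold lower in prde-1 and 104-fold lower in prg-1, where the bounds differ only by depth. These were the only 2 of all 9742 listed piRNAs with a WT mean of 100 RPM or more, and together they held 8.93% of the WT level of the window. Without them the summed level was 0.166% of WT in prde-1.

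The next 8 members by WT mean lay between 47.2 and 67.6 RPM. 21ur-5714 had 59.6 and 75.5 RPM in WT, at IV:14089384-14089404 outside coding genes. 21ur-3502 had 67.0 and 62.4 RPM in WT, at IV:14093199-14093219, antisense in an intron of noah-2. 21ur-251 had 76.7 and 44.9 RPM in WT, at IV:14311291-14311311 and so within the same host, Y64G10A.7, as 21ur-5695 and on the same strand. Among these 8 the pair of WT libraries differed most for 21ur-251, and its mutant values of 0 still lay below both.

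21ur-4568, at IV:14405965-14405985, had 57.3 and 52.6 RPM in WT and lay in an intron of xdh-1, which encodes a xanthine dehydrogenase. 21ur-7127 had 55.1 and 53.6 RPM and 21ur-1122 had 48.4 and 53.6 RPM in WT, both outside coding genes. 21ur-3454 had 58.8 and 40.5 RPM in WT, in an intron of paqr-3, and 21ur-3730 had 46.2 and 48.2 RPM in WT, in an intron of Y64G10A.7. Of the 10 most abundant members 9 were on the minus strand; 21ur-3730 alone was on the plus strand. Of these next 8, 21ur-3502 was the only member with any mutant read, at 0 and 0.178 RPM in prde-1 and 1.03 and 0 RPM in prg-1. All 10 fell in each mutant by limma, with log2 fold changes between -7.66 and -5.53. They were picked by WT level in the same libraries, so these calls are not independent support.

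**Figure D3:**
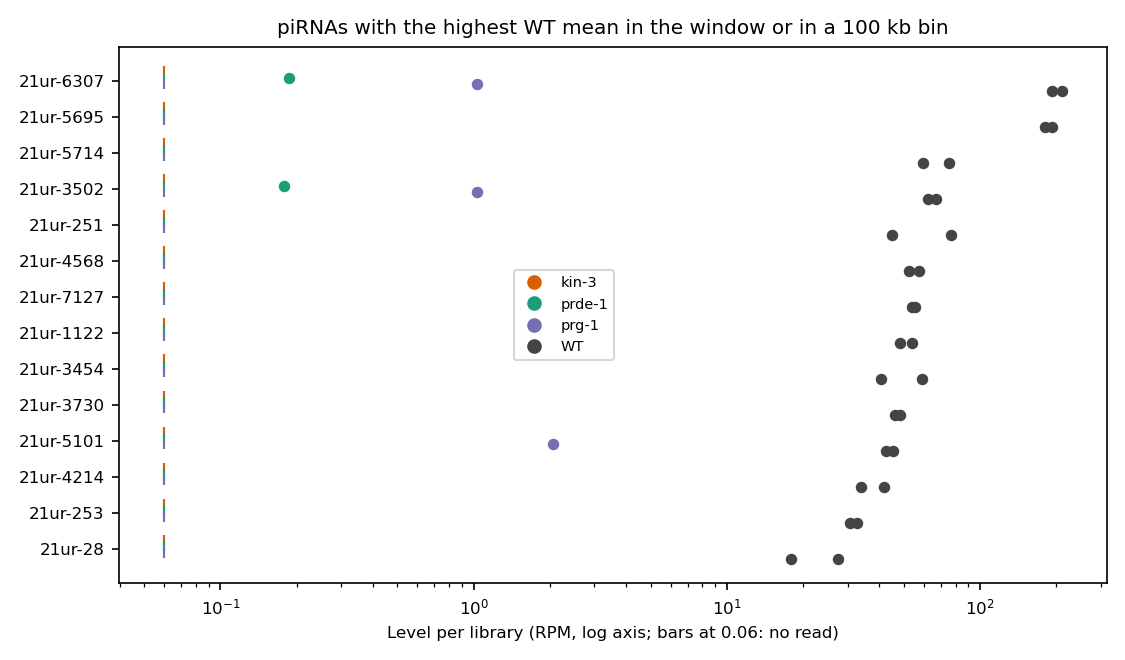
Level per library (RPM, log axis, colours for kin-3, prde-1, prg-1 and WT) of the 10 members with the highest WT mean and of the member with the highest WT mean in each 100 kb bin, 1 row each; vertical ticks at 0.06 stand for libraries with no read. All WT points lie at 17.9 RPM or above, and the mutant points with a read lie at 2.06 RPM or below.

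A few members were not called or kept reads in both libraries of a mutant. 21ur-8118, at IV:14716126-14716146 and antisense in an intron of lgc-8, a ligand-gated ion channel gene, had 2.93 and 0 RPM in kin-3 and no read in the other mutants, against 3.72 and 4.38 RPM in WT. Its log2 fold change in kin-3 was -1.35 ± 0.63 (SE) with an adjusted p of 0.0847, and the ratio of pooled reads was 3.6 (95% interval 0.499 to 157.9). That value comes from a lone read in the shallowest library, where 1 read is worth 2.93 RPM. The log2 fold change was -2.33 without kin-3 replicate 1 and -0.36 without kin-3 replicate 2. Such fits leave 1 kin-3 library with no spread of its own, so no call is read from them. In no alternative that kept both kin-3 and both WT libraries was the member called. The highest adjusted p among those was 0.183, by limma with kin-3 and WT fitted alone.

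21ur-8606, at IV:14665595-14665615 and sense in an intron of anoh-2, an anoctamin gene, had 0 and 1.43 RPM in prg-1, against 5.96 and 1.09 RPM in WT. The groups overlap for this member, since the second prg-1 library lay above the second WT library. Its log2 fold change in prg-1 was -1.29 ± 0.68 (SE) with an adjusted p of 0.116. It was called lower in prg-1 by edgeR (log2 fold change -2.61, adjusted p = 0.0296) and without WT replicate 2 (-2.16, 0.0213), and the highest adjusted p over the 15 alternatives was 0.498. It was called lower in kin-3 and prde-1, where it had no read, and each of those calls held under 5 of 15 alternatives.

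In prde-1 the members read in both libraries were 21ur-6011, 21ur-3236 and 21ur-5515, the only such members in any mutant. 21ur-6011, at IV:14754109-14754129 and antisense to a coding exon, had 0.375 and 0.178 RPM in prde-1, against 2.23 and 5.47 RPM in WT; its log2 fold change was -1.85 (limma adjusted p = 0.0025) on the RPM scale and 0.015 with TMM factors (adjusted p = 0.955), and it was called lower in 14 of 15 alternatives. 21ur-3236, antisense in an intron of xdh-1, had 0.187 and 0.178 RPM in prde-1, against 5.96 and 3.28 RPM in WT. 21ur-5515, antisense in an intron of lgc-8, had 0.187 and 0.178 RPM in prde-1, against 1.49 and 1.09 RPM in WT, and was below the level at which members were tested. Both prde-1 libraries were below both WT libraries for each of the 3.

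Taken over all members, the reads left in the mutants were spread thinly. They fell on 91 members (3.65%), of which 86 had reads in 1 mutant, 5 in 2 mutants and 0 in all 3. All 9 such members in kin-3 had a single read, as did 46 of 58 in prde-1 and 27 of 29 in prg-1. The highest number on 1 member in a mutant was 4 reads, for 21ur-2486 at IV:14128994-14129014, all in prde-1 replicate 1 (0.749 and 0 RPM in prde-1, against 5.96 and 1.09 RPM in WT). This member is named after its values were seen. Of the members with a mutant read, 18 had no WT read, 10 of them in prde-1 worms, 8 in prg-1 worms and 0 in kin-3 worms.

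The reads left in prde-1 and prg-1 were less skewed to abundant members than those of WT. Members were classed by their reads in WT replicate 1 and the remaining level was measured against WT replicate 2, so that class and level came from different libraries. For the 123 members with 10 or more reads, 0.189% of the WT level remained in kin-3 (95% interval 0.0514 to 0.484), 0.0584% in prde-1 (0.0326 to 0.0965) and 0.230% in prg-1 (0.105 to 0.437). For the 1426 members with 0 reads in that library, 0.302% remained in kin-3 (0.00762 to 1.69), 0.399% in prde-1 (0.225 to 0.657) and 1.96% in prg-1 (1.00 to 3.47).

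The intervals of the lowest and highest class do not meet in prde-1 or in prg-1, and they overlap widely in kin-3, which has 1 and 4 reads in these classes. The class of 10 or more reads held 44.4% of the kin-3 reads, 20.5% of the prde-1 reads and 29.0% of the prg-1 reads, against 54.0% of the reads of WT replicate 2. With the WT libraries exchanged the order was the same: 0.0461% against 0.300% in prde-1 and 0.220% against 1.23% in prg-1, for 10 or more reads against 0 reads.

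**Figure D4:**
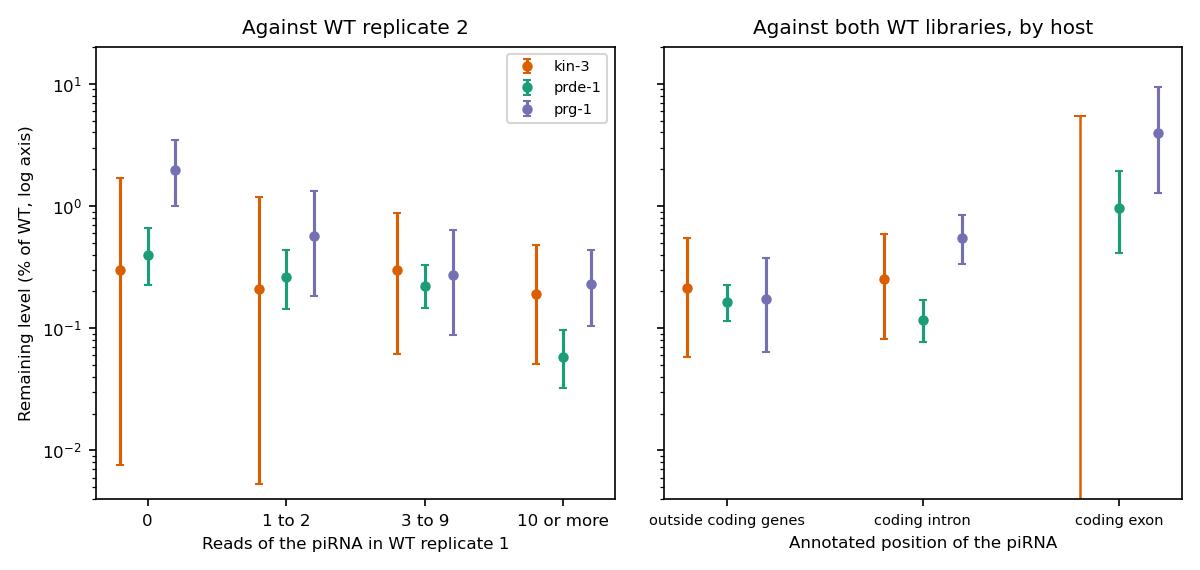
Remaining level of the members in worms of the kin-3, prde-1 and prg-1 genotypes as a percentage of WT (log axis, points are pooled reads per genotype, bars are exact 95% counting intervals), by the reads of the piRNA in WT replicate 1 (left) and by its annotated position (right). In prde-1 the value is 0.399% for members with 0 reads and 0.0584% for those with 10 or more; kin-3 had no read in coding exons, so only its upper limit of 5.45% is drawn there.

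Little of the WT level remained at any position relative to coding genes, and in prde-1 and prg-1 the share was highest for members in exons. By the WBcel235 annotation 1289 members (51.7%) lay outside coding genes, 1124 (45.1%) in introns and 81 (3.25%) in coding exons. A coding exon, here and above, is any exon of a coding gene, its untranslated parts included. Their WT levels were 2081 ± 2.27 RPM, 2190 ± 6.57 RPM and 76.1 ± 2.31 RPM (SD, n = 2), or 47.9%, 50.4% and 1.75% of the window. Members outside coding genes kept 0.213% of the WT level in kin-3 (0.0580 to 0.545), 0.163% in prde-1 (0.114 to 0.224) and 0.173% in prg-1 (0.0633 to 0.376), with reads pooled by genotype.

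Members in introns kept 0.253% in kin-3 (0.0820 to 0.590), 0.117% in prde-1 (0.0775 to 0.169) and 0.547% in prg-1 (0.334 to 0.845). The prg-1 intervals of introns and of members outside genes overlap. Members in coding exons kept 0.964% in prde-1 (0.410 to 1.94; 8 reads) and 3.95% in prg-1 (1.27 to 9.40; 5 reads), against 171 WT reads, and no read in kin-3. Both exon intervals lie above those of the other 2 positions when all exon members are counted.

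The exon values rest on very few members. Of the 8 prde-1 reads, 5 fell on 21ur-11278 and 21ur-6011, which overlap on the same strand with starts 2 nt apart in the same exon of a coding gene. Without 21ur-6011 the remaining exon level in prde-1 was 0.632% (0.203 to 1.51; 5 reads), an interval that overlaps that of members outside coding genes. Without 21ur-11897, in an exon of noah-2, the level in prg-1 was 2.40% (0.490 to 7.13; 3 reads), an interval that overlaps that of introns. In the windows from 13, 15 and 16 Mb the exon level left in prde-1 was 0.261% (1 read), 0.539% (4 reads) and 0.338% (1 read), and that in prg-1 was 1.71%, 0.883% and 2.21% (1 read each). By limma, 117 of 117 tested members outside coding genes fell in each mutant, of the 110 in introns 109 fell in kin-3 worms, 110 in prde-1 worms, and 109 in the prg-1 fit, and 6 of 6 in exons fell in each. All of these counts lie near the 97.8%, 98.3% and 98% of all tested piRNAs called lower, and nothing is read from them about position.

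Within WT the level was uneven along the window. Positions along it are given in kb from its start, in 10 bins of 100 kb. The bin from 300 to 400 kb held the most, with 779.0 and 768.6 RPM over 282 members, and the bin from 800 to 900 kb the least, with 318.0 and 332.9 RPM over 248 members. The other 8 bins lay between 340.5 and 530.2 RPM in every WT library. The bin from 300 to 400 kb owed 24.1% of its level to 21ur-5695, and the bin from 500 to 600 kb owed 39.6% to 21ur-6307. The widest gap between the 2 WT libraries was in the bin from 500 to 600 kb, at 530.2 and 488.3 RPM.

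Reads of the mutants were few in every bin. The highest number for kin-3 was 3 reads, from 100 to 200 kb, where prde-1 also had its highest number, 14 reads. The highest number for prg-1 was 8 reads, from 400 to 500 kb. No kin-3 read fell in 4 of the 10 bins, from 0 to 100, 200 to 300, 800 to 900 and 900 to 1000 kb.

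The strands were unequal in WT level, though not in number. The minus strand carried 1241 members and 2576 ± 33.7 RPM, and the plus strand 1253 members and 1771 ± 31.7 RPM (SD, n = 2). The minus strand thus held 59.8% and 58.7% of the level of the 2 WT libraries. Without 21ur-6307 and 21ur-5695, both on the minus strand, the share was 55.3%. The mutant reads numbered 7 on the minus and 2 on the plus strand in kin-3, 37 and 36 in prde-1, and 19 and 12 in prg-1.

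The minus-strand excess lay in the first 600 kb. From 0 to 600 kb the minus strand held 52.3% of the listed members but 70.4% and 68.7% of the level in the 2 WT libraries, or 65.6% and 63.6% without the 2 most abundant members. From 600 to 1000 kb it held 46.2% of the members and 40.6% and 41.8% of the level. In each of the first 6 bins the minus strand held at least 57.1% of the level in both WT libraries, with the highest shares, 78.9% and 86.4%, from 0 to 100 kb. From 700 kb on it held 33.0% to 42.1%. In the neighbouring windows the minus strand held 49.0% and 51.7% of the WT level (13 to 14 Mb), 49.4% and 48.5% (15 to 16 Mb) and 53.9% and 54.8% (16 to 17 Mb). The border at 600 kb was drawn after the values were seen, so these shares are a description with no test.

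**Figure D5:**
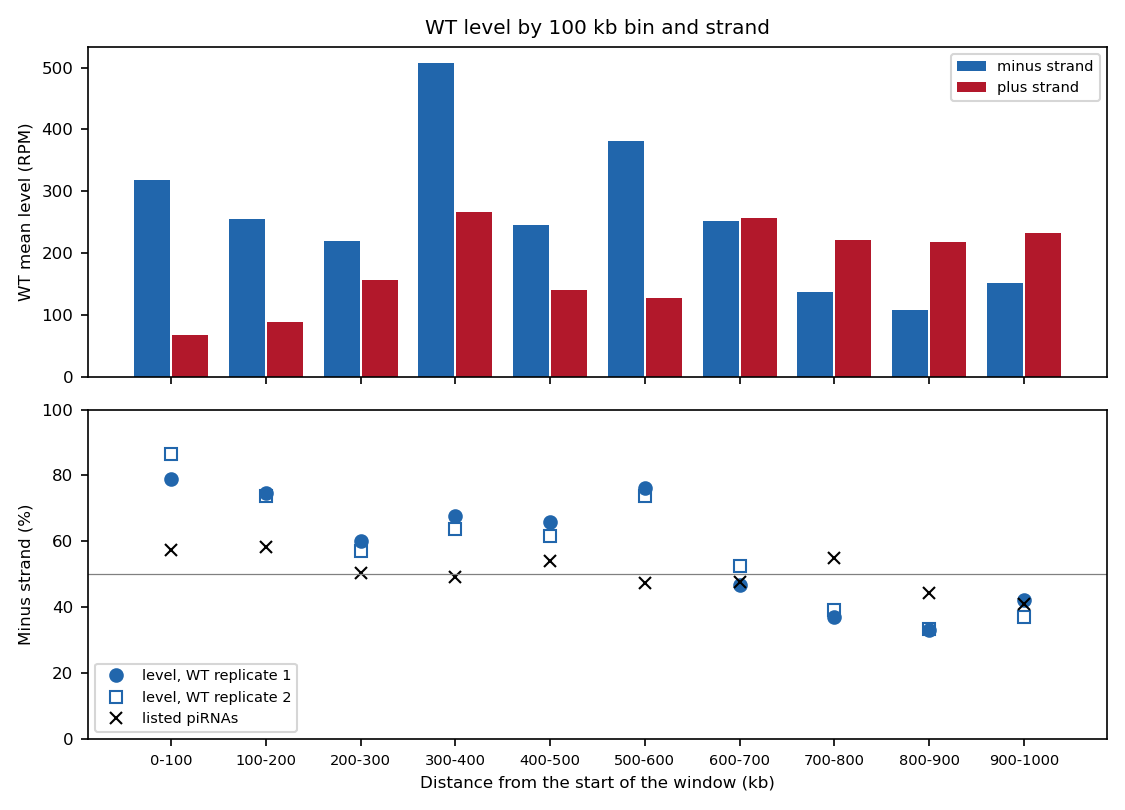
WT level by 100 kb bin along the window, as mean RPM on the minus strand (blue bars) and plus strand (red bars) above, and below as the share of the minus strand in the level of each WT library (circles and squares) and in the listed piRNAs (crosses). The level shares are above the 50% line in the first 6 bins and below it in the last 3, while the listed shares lie between 41.1% and 58.2%.

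The most abundant member of each bin in WT was also followed. Those not yet described were 21ur-5101 from 200 to 300 kb, 21ur-4214 from 700 to 800 kb, 21ur-253 from 800 to 900 kb and 21ur-28 from 900 to 1000 kb. 21ur-5101 had 2.06 and 0 RPM in prg-1 and 0 in the other mutants, against 45.4 and 42.7 RPM in WT, and lay antisense in Y64G10A.7. The other 3 had no mutant read: 21ur-4214 had 41.7 and 33.9 RPM in WT, 21ur-253 had 32.8 and 30.7, and 21ur-28 had 17.9 and 27.4. All 4 fell in each mutant by limma, which their choice by WT level in the same libraries made likely beforehand.

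The members in introns and exons were shared among 87 coding genes, which held 1204 members. In 10 of these genes 40 or more members were listed. Y64G10A.7 held 78 members, 76 of them in introns, with 466 ± 7.40 RPM in WT (SD, n = 2), which is 10.7% of the window; without 21ur-5695 the level was 280 RPM. tag-273 held more members, 82, at 142 ± 10.7 RPM, and eps-8, which encodes an actin regulator, held 70 at 119 ± 5.07 RPM. In Y64G10A.7 the mutant reads were 1 in kin-3 worms, 2 in prde-1 worms and 4 in prg-1 worms, and in tag-273 they were 0, 1 and 2.

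The WT level was concentrated in few members. Ranked in WT replicate 1 and measured in WT replicate 2, the top 2 members held 8.84% of the level, the top 10 held 18.8%, the top 100 held 49.9% and the top 250 held 67.8%. By WT mean, 2 members were at 100 RPM or more, 83 at 10 to under 100 RPM (41.0% of the level), 618 at 1 to under 10 RPM (42.3%) and 616 below 1 RPM (7.77%). The 2 WT libraries ranked the tested members alike only in part, by the coefficients that follow. Of the 233 tested members, which were selected by level, 80.3% were within 2-fold. Among all 2494 members 464 were within 2-fold, and only the 666 with a read in both WT libraries could be compared in this way. The 1175 members with no WT read say nothing about agreement in level. Over the tested members Pearson's r of log2 levels was 0.786 and Spearman's rho 0.661, across piRNAs, which are not independent replicates. Over the 218 members with at least 10 WT reads in all, the WT libraries differed slightly more than counting noise gives (chi-square 252.6, 217 degrees of freedom, p = 0.0487).

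Members were densely packed. The median distance from 1 start to the next was 234 nt, against 299, 224 and 242 nt in the windows from 13, 15 and 16 Mb. On the same strand 724 members (29.0%) overlapped another member and formed 330 groups of up to 6, in which the top member held 92.7% of the WT level. The group at IV:14093193-14093219 held 4 listed piRNAs, and all 64.7 RPM of its WT level lay in 21ur-3502. Opposite-strand overlap was rare, with 47 members (1.89%). Overlapping members share sequence and are not separate observations.

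Set against its 3 neighbours, the window's ratio of remaining shares had a counting interval that excluded 1 for 2 of them in prde-1. In kin-3 and prg-1 no such interval excluded 1 at this depth. The Mb before it kept 0.235% of the WT level in kin-3 worms, 0.0808% in prde-1 worms and 0.436% in prg-1 worms, the next Mb kept 0.429%, 0.157% and 0.508%, and the Mb after that kept 0.578%, 0.247% and 0.323%. With pooled reads, the remaining share of the window in prde-1 was 1.91 times that of the Mb before it (95% interval 1.005 to 4.0) and 0.622 times that from 16 to 17 Mb (0.443 to 0.874), the first interval just above 1 and the second below it. In kin-3 the share was 0.430 times that from 16 to 17 Mb (0.162 to 1.09). The intervals of the other 7 of the 9 ratios include 1. No adjustment was made for the 9 ratios, and the intervals leave out the spread between libraries. The first compares 73 prde-1 reads in the window with 11 in the Mb before it. Of the 73, 4 fell on 21ur-2486 in prde-1 replicate 1, so a difference between the windows is not established. Per listed piRNA the WT level was 1.74 RPM in the window, or 1.59 RPM without the 2 most abundant members, against 1.61, 1.36 and 1.38 RPM in the windows from 13, 15 and 16 Mb. The window held more of its piRNAs inside coding genes than the 2 windows after it: 51.7% lay outside them, against 72.0% and 84.4%, and fewer than the window before it, at 44.9%.

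At the edges of the window nothing turned on the border. The first member inside, 21ur-1182 at IV:14000233-14000253, and the last, 21ur-8060 at IV:14999882-14999902, had no read in any library. The nearest piRNA before the window, 21ur-6941 at IV:13999476-13999496, had no mutant read and 5.21 and 2.19 RPM in WT, and the nearest after it, cel-piR-15592 at IV:15000632-15000652, had no read.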

How the data were processed

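The authors deposited 1 table with a value in RPM for each of 9742 piRNAs in each of 8 libraries. Per the labels' protocols, Trizol RNA was enriched for small RNAs on a mir-Vana column, treated with the polyphosphatase PIR-1, ligated to adaptors and sequenced on a HiSeq; cutadapt 1.18 and Bowtie 1.2.1.1 are named in the submitters' processing notes. The genome build, the handling of reads with several matches and the reads covered by the library total are all not given in sources used here. Reads with several matches would change members that overlap or share sequence. Dividing each value above 0 by the lowest of its column gave whole numbers (tolerance 0.01 reads) in 100% of cases, read as whole reads, and 1000000 over that lowest value gave library totals of 341001 and 562081 (kin-3), 5337646 and 5608712 (prde-1), 969718 and 699884 (prg-1), and 1342764 and 913321 (WT).

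Single piRNAs were tested with limma 3.58.1 (trended prior) in R 4.3.3 on log2(RPM + 1), all 8 libraries in 1 fit by genotype, for the 695 piRNAs whose mean over all libraries reached 1 RPM, two-sided, with Benjamini-Hochberg adjustment over all 695 at 0.05; edgeR 4.0.16 on recovered reads was an alternative and called 231 members lower in kin-3 worms, 233 in prde-1 worms and 233 in the prg-1 fit. The share of all tested piRNAs called by edgeR is not given here, so nothing particular to the window is read from its counts. Scripts were tested on simulated data. In the simulation for limma and edgeR most piRNAs were left unchanged, unlike in these data. Sums over members received exact 95% counting intervals and no p-value. Coordinates are those of the deposited table, and hosts come from the Ensembl annotation of WBcel235, whose piRNA genes matched 9620 of the 9742 positions. The sequences of the piRNAs and their upstream motif were not used here.

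The members named were the 10 with the highest WT mean, the highest of each 100 kb bin, tested members not called lower in a mutant, members called between mutants, up to 5 members per mutant read in both of its libraries (the highest by mean) and the nearest piRNA on either side of each edge. The members and lists were chosen with earlier results of these data known. Alternatives were the pseudocount, the filter, TMM factors, a replicate block, fits of 2 genotypes and leaving out each library; 4 others were chosen after seeing the data, namely the exchange of the WT libraries, leaving out the exon member with the most reads, and leaving out the 2 most abundant members from the strand share and from the sum.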

Additional observations from a re-analysis of the deposited data

How the results depend on the processing

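With no filter, 660 members were called lower in each mutant of 1337 tested, and with a mean of at least 10 RPM 11 of 11 in each; the number of members tested sets these counts. Leaving out 1 library at a time gave 230 to 232 members lower in kin-3, 229 to 233 in prde-1 and 229 to 232 in prg-1, and 0 higher in each. Between mutants it gave 0 to 1 member lower and 0 to 2 higher in kin-3 against prde-1, 0 to 1 lower and 0 to 2 higher in kin-3 against prg-1, and 0 to 1 lower and 0 to 1 higher in prde-1 against prg-1. Each of these calls rests on 1 or 2 reads per genotype: 21ur-6610 was called without kin-3 replicate 1, 21ur-60 and 21ur-8118 without kin-3 replicate 2, 21ur-485 without prg-1 replicate 1, 21ur-5101 without prg-1 replicate 2 and 21ur-3236 without either WT library. The lone library left in such a fit is assumed to vary like the other genotypes. In the fits without a WT library, the 196 tested members with no mutant read had residual variances of exactly 0. The standard errors of those fits thus rest on few piRNAs. Fits of 2 genotypes alone were run only for each mutant with WT, and not for pairs of mutants.

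As a share of WT the summed level ranged, without 1 library, from 0.0819% to 0.472% in kin-3, 0.152% to 0.155% in prde-1 and 0.329% to 0.498% in prg-1. TMM factors ranged from 0.15 to 2.49, gave 0.809% in prg-1 worms and 2.15% in prde-1 worms, and moved the median log2 fold change of all tested piRNAs by 1.00 in kin-3 worms, 1.04 in prde-1 worms and 1.00 in the prg-1 fit; under them the members' medians were -2.08, -2.03 and -2.04, beside -2.05, -2.02 and -2.04 over all tested. The only named change that reversed was that of 21ur-6011 in prde-1, at 0.015 (adjusted p = 0.955), which lies above that shifted median. The factors were 0.186 and 0.15 in the prde-1 libraries and 2.19 and 2.49 in the WT libraries. Dividing by them raised the prde-1 values of this member, which rest on 3 reads, and lowered its WT values. Without 21ur-6307 and 21ur-5695 the prde-1 share was 0.166%. Thinned to the smallest library, 2.25 members had a read in prde-1 worms, 6.00 in prg-1 worms and 560.2 in WT. Deviations of same-numbered libraries correlated at -0.0286 to 0.0741 over the 6 pairs of genotypes. Most tested members had no read in a mutant, so values near 0 arise there with or without pairing. Whether the replicate numbers pair the samples was thus not decided. A replicate block gave 231 members lower in kin-3 worms, 232 in prde-1 worms and 232 in the prg-1 fit, with 0 between mutants. Depth limits the kin-3 libraries most, where a member under 3.32 RPM can be missed.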
